A study of Mus musculus with 16 samples.

Results

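Scavenger receptors are a loose family of surface and lysosomal proteins with which macrophages bind and take up modified lipoproteins, fatty acids, dying cells, bacteria and spilled haemoglobin. They were described here by 10 mouse genes, chosen by gene symbol, each read by 1 probe set among the 19937 genes measured. Earlier results of these data were known when these genes and the related lists were chosen. Counts of called genes among them are therefore no independent support. The class A members Msr1, Marco and Colec12 share a collagen-like stalk and bind modified lipoproteins, bacteria or sugar-bearing ligands. Olr1, also called LOX-1, is a lectin-like receptor for oxidised low-density lipoprotein. The class B members span the membrane at both ends: Cd36 takes up fatty acids and oxidised lipoprotein, Scarb1 exchanges cholesterol with high-density lipoprotein, and Scarb2, or LIMP-2, sits in lysosomes and carries glucocerebrosidase there. Cd163 clears haptoglobin-haemoglobin complexes, Stab1 clears acetylated lipoprotein and other circulating ligands, and Cd68 is a lysosomal glycoprotein widely used as a macrophage marker. In macrophages, lipopolysaccharide (LPS), the endotoxin of Gram-negative bacteria, acts through the receptor TLR4 and rearranges uptake and lipid handling. NFAT5 is a Rel-family transcription factor known for the response to high salt, and it also acts on genes induced through Toll-like receptors in macrophages.

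Total RNA of bone-marrow-derived macrophages, which are macrophages grown in culture from mouse marrow, was hybridised to 16 Affymetrix arrays. There were 4 arrays in each of 4 groups: NFAT5 knockout (KO) macrophages with LPS, wild-type (WT) macrophages with LPS, unstimulated KO macrophages and unstimulated WT macrophages. All groups were on the 129sv background. The labels used here name neither the KO allele nor the age of the mice, the LPS dose, the exposure time or the animals behind each array. The p-values therefore rest on differences between arrays that may be technical replicates. Values are log2 levels per gene made by the authors with robust multi-array average (RMA), so a difference of 1 is a 2-fold change. RMA draws the differences of dim genes towards 0, and the median level over all genes was 7.09. A gene was called when its p from a limma model over all 19937 genes, adjusted by the Benjamini-Hochberg method, was under 0.05, and all adjusted p below are from limma. In RNA from a whole culture, fewer cells of a type and less RNA per cell cannot be told apart.

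Nfat5 itself was at 9.29, 9.29, 9.12 and 8.67 in the KO arrays 1 to 4 with LPS, against 9.95, 10.56, 9.97 and 9.80 in the WT arrays with LPS, a difference of -0.98 (adjusted p = 0.00169). Without LPS it was at 8.93, 9.03, 9.20 and 8.99 in KO arrays, against 9.15, 9.41, 9.34 and 9.67 in WT arrays, which overlapped and differed by -0.36 (adjusted p = 0.602). Where the probes lie relative to the deleted part is not given, so this reading checks the labels only in part. The sex-linked transcripts split the KO groups: Kdm5d, on the Y chromosome, was above Xist, the RNA of the inactive X chromosome, in 3 of 4 KO arrays of each treatment (numbers 1 to 3). Xist was above Kdm5d in KO array 4 of each treatment and in all 8 WT arrays, so sex moved with genotype. Genotype calls that changed with a term for this split, or among the 10 arrays with Xist above Kdm5d alone (1 KO array per treatment), are marked below. The arrays numbered 4 also stood apart on the second principal component, which held 7.55% of the variance, at 31.4 in KO and 18.5 in WT with LPS and 24.4 in KO without it, with 6.42 in WT without it, within the range of the other arrays. All 8 macrophage markers lay above the all-gene median in every group, with a mean level between 12.03 and 12.37 on every array. No B cell, neutrophil, dendritic cell or erythroid marker that was measured reached that median in any group. Of the T cell markers 1 of 3 measured (Cd3e) and of the fibroblast markers 2 of 4 (Col1a1 and Col1a2) lay above it in every group. Of the endothelial markers, Kdr was above it (10.43 in KO and 10.52 in WT with LPS, 7.97 in KO and 7.83 in WT without), while Cdh5 and Tek were below it in every group, and Stab2 was near it (6.83 in KO and 6.86 in WT with LPS, 7.10 in KO and 7.02 in WT without).

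LPS moved most scavenger receptor genes in both genotypes, in opposite directions by gene. In KO macrophages 3 members were higher with LPS (Msr1, Marco and Olr1) and 7 were lower, against 24.7% of all genes called in either direction (12% higher and 12.7% lower). In WT macrophages the same 3 were higher and 6 were lower, with Cd36 not called, against 30.8% of all genes called (14% higher and 16.8% lower). The median difference over the members was -0.45 in KO and -0.56 in WT, with medians of 0.01 and 0.06 over all genes. The median size of the difference was 0.84 in KO and 1.30 in WT, where all genes gave 0.14 and 0.18. With and without LPS, the arrays did not overlap for 9 of 10 members in KO and for 9 of 10 in WT macrophages. Over all genes this share was 24.8% in KO and 32.3% in WT. These all-gene figures, and those below, include dim genes, whose differences RMA draws towards 0. All members but Olr1 and Cd163 were at percentile 73.3 or higher of mean level. Among genes above the median level alone, 5276 were called in WT, against 6132 of all 19937 genes. Whether these contrasts go with level was not tested.

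**Figure D1:**
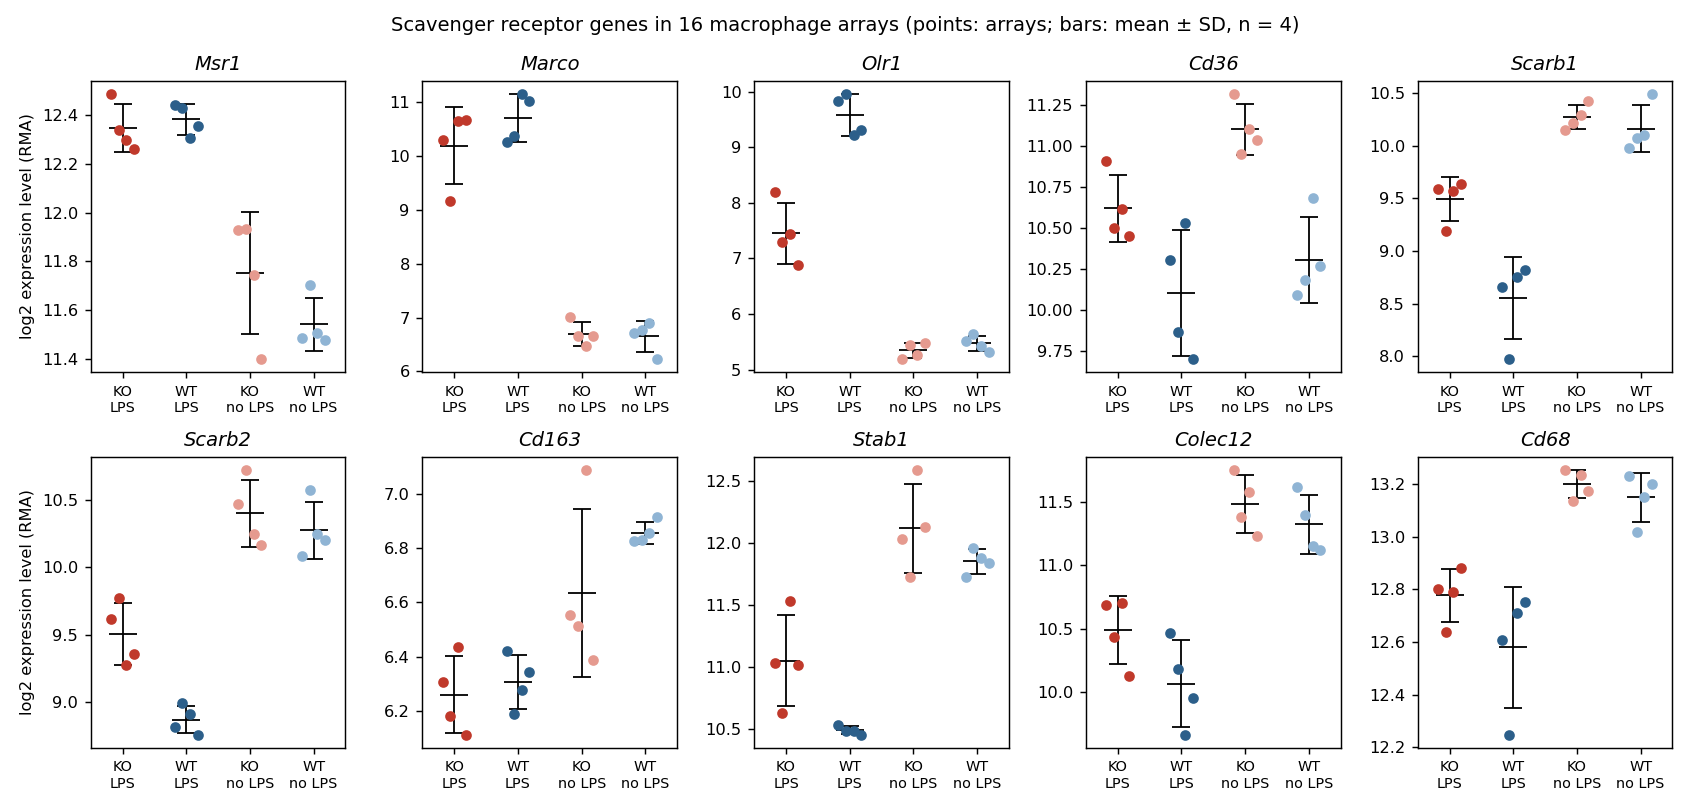
Log2 RMA level of each of the 10 scavenger receptor genes (vertical axes, 1 panel per gene, each with its own scale) on every array of the 4 groups, with bars for the mean ± SD (n = 4). Olr1 reached 6.88 to 8.20 in KO and 9.22 to 9.96 in WT with LPS and stayed between 5.19 and 5.64 on all 8 unstimulated arrays.

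Marco and Olr1 had the largest LPS responses of the 10. Marco was at 10.29, 9.16, 10.66 and 10.67 in the KO arrays 1 to 4 with LPS, against 7.00, 6.66, 6.47 and 6.66 in the unstimulated KO arrays. This was a rise of 3.50 ± 0.27 (SE), or 11.3-fold (adjusted p = 1.51e-08). In WT macrophages Marco was at 10.27, 10.37, 11.15 and 11.03 with LPS, against 6.71, 6.76, 6.90 and 6.23 without, a rise of 4.05 ± 0.27 or 16.6-fold (adjusted p = 1.59e-09). The array of KO macrophages with LPS numbered 2 was the lowest of the 8 LPS arrays for Marco, and every LPS array was above every unstimulated one. Olr1 was at 8.20, 7.30, 7.44 and 6.88 in the KO arrays with LPS, against 5.19, 5.44, 5.27 and 5.48 in the unstimulated KO arrays, a rise of 2.11 ± 0.21 or 4.31-fold (adjusted p = 3.43e-07). In WT macrophages Olr1 was at 9.84, 9.96, 9.22 and 9.31 with LPS, against 5.51, 5.64, 5.43 and 5.32 without, a rise of 4.11 ± 0.21 or 17.2-fold (adjusted p = 4.34e-11). Unstimulated Marco and Olr1 levels lay below the all-gene median on every array, where RMA compresses differences, so these folds may be smaller than the change in RNA. Msr1, a receptor for acetylated lipoprotein, also rose. It was at 12.26 to 12.48 in KO macrophages with LPS, against 11.40 to 11.93 without (0.59 ± 0.11, 1.51-fold, adjusted p = 0.000322). In WT macrophages Msr1 was at 12.30 to 12.44 with LPS, against 11.48 to 11.70 without (0.84 ± 0.11, 1.79-fold, adjusted p = 5.49e-06).

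The sequences just upstream of the listed starts of Olr1 and Marco, the members with the largest LPS responses, and of Cd36 and Scarb2, called below for genotype, are given to show what letters lie there. They are the 250 bases before the start in RefSeq, build GRCm38.p6, minus strand, printed 5′ to 3′ along the gene, at chr6:129507166-129507415 for Olr1, chr1:120505025-120505274 for Marco, chr5:17835897-17836146 for Cd36 and chr5:92505658-92505907 for Scarb2. Capitals mark matches on either strand to 8 motifs: TGGAAA (core letters bound by NFAT5), the NF-kB consensus, TGANTCA (AP-1), TGACNNNGC (NRF2), GAGGAA (PU.1), CACGTG (E-box), AGGTCA (nuclear receptors) and TATAAA (the TATA motif).
Olr1: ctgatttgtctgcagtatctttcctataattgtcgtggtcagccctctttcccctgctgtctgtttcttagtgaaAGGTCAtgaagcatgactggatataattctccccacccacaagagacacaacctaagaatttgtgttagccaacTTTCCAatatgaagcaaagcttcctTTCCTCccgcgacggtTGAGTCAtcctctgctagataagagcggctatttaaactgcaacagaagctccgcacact
Marco: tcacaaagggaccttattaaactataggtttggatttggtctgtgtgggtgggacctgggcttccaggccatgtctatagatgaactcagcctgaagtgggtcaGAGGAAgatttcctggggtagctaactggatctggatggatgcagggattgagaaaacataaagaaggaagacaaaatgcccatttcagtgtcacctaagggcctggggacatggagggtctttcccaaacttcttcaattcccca
Cd36: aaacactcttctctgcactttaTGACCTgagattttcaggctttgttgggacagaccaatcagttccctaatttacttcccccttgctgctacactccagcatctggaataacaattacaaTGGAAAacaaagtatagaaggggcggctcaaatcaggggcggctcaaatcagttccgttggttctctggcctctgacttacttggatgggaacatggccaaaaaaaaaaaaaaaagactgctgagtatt
Scarb2: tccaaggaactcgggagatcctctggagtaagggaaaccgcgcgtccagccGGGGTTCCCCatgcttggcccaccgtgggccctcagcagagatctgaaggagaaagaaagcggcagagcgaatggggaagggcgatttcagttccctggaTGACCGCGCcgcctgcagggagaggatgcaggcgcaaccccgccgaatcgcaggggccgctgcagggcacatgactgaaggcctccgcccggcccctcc
The Olr1 stretch held TGGAAA on the reverse strand at bases -101 to -96 from the start, TGANTCA at -60 to -54, GAGGAA on the reverse strand at -76 to -71 and AGGTCA at -175 to -170. Marco held GAGGAA at -146 to -141 and no other motif searched. Cd36 held TGGAAA at -129 to -124 and AGGTCA on the reverse strand at -228 to -223. Scarb2 held the NF-kB consensus, on both strands, at -199 to -190 and TGACNNNGC at -99 to -91. The table listed 7 of the 10 members, leaving Msr1, Scarb1 and Colec12 without an entry. TGGAAA stood in 3 of these 7 (Olr1, Cd36 and Cd163) and in 18.6% of all 32851 listed promoters, TGANTCA in 2 (Olr1 and Cd68) and in 6.75%, and GAGGAA in 4 (Marco, Olr1, Stab1 and Cd68) and in 23.3%. AGGTCA stood in 2 (Olr1 and Cd36) and in 14.0% of all, the NF-kB consensus in Scarb2 and in 7.25%, and TGACNNNGC in Scarb2 and in 10.2%. CACGTG and TATAAA were found in 0 of 7 members, and in 6.02% and 12.4% of all promoters. A match describes letters in this window and says nothing of binding.

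The 5 members Scarb2, Scarb1, Stab1, Colec12 and Cd68 were lower with LPS in both genotypes. Scarb2 was at 9.62, 9.77, 9.28 and 9.36 in KO macrophages with LPS, against 10.47, 10.72, 10.25 and 10.17 without, a log2 difference of -0.89 ± 0.14 (1.86-fold, adjusted p = 5.09e-05). In WT macrophages Scarb2 was at 8.82, 8.99, 8.92 and 8.76 with LPS, against 10.08, 10.57, 10.25 and 10.20 without (-1.40 ± 0.14, 2.64-fold, adjusted p = 1.69e-07). No LPS array reached an unstimulated array of its genotype. Scarb1 was at 9.59, 9.19, 9.57 and 9.64 in KO macrophages with LPS, against 10.15, 10.22, 10.30 and 10.43 without (-0.78 ± 0.16, 1.71-fold, adjusted p = 0.00116). In WT macrophages Scarb1 was at 8.66, 7.98, 8.75 and 8.82 with LPS, against 9.98, 10.08, 10.11 and 10.49 without (-1.61 ± 0.16, 3.06-fold, adjusted p = 2.6e-07). The groups were again separate in both genotypes. Stab1 fell by 1.06 ± 0.17 in KO macrophages (2.09-fold, adjusted p = 6.5e-05) and fell by 1.36 ± 0.17 in WT macrophages (2.56-fold, adjusted p = 2.96e-06). Colec12, the collectin-like member of class A, fell by 0.99 ± 0.17 in KO (adjusted p = 0.000188) and fell by 1.25 ± 0.17 in WT (adjusted p = 1.12e-05), where Msr1 and Marco of the same class rose. Cd68 fell by 0.42 ± 0.10 in KO (adjusted p = 0.00414) and fell by 0.57 ± 0.10 in WT (adjusted p = 0.000228).

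The KO calls for Cd36 and Cd163 were the LPS calls most often lost in alternative settings. Cd36 was at 10.91, 10.50, 10.62 and 10.45 in KO macrophages with LPS, against 11.31, 10.95, 11.10 and 11.04 without, a log2 difference of -0.48 ± 0.17 (adjusted p = 0.0425). This call was kept in 17 of 28 alternative settings, where adjusted p reached 0.399. In WT macrophages Cd36 was at 10.30, 9.87, 10.53 and 9.70 with LPS, against 10.09, 10.18, 10.68 and 10.27 without, and the arrays overlapped (-0.20, 95% interval -0.56 to 0.15, adjusted p = 0.403). The difference between the genotypes in this response was -0.28 with an interval of -0.78 to 0.22 (adjusted p = 0.795), so the call in one genotype and its absence in the other are not shown to differ. Cd163 was dim, at 6.11 to 7.09 over the 16 arrays. It was at 6.11 to 6.44 in KO macrophages with LPS, against 6.39 to 7.09 without (-0.38 ± 0.12, adjusted p = 0.0301), and 1 unstimulated KO array lay within the LPS range. That call was kept in 20 of 27 settings. In WT macrophages Cd163 was at 6.19 to 6.42 with LPS, against 6.83 to 6.91 without (-0.55 ± 0.12, adjusted p = 0.0017). Of the other KO calls, Scarb1, Colec12 and Cd68 were lost among the arrays with Xist above Kdm5d, where KO had 1 array per treatment (adjusted p 0.216, 0.0635 and 0.531).

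**Figure D2:**
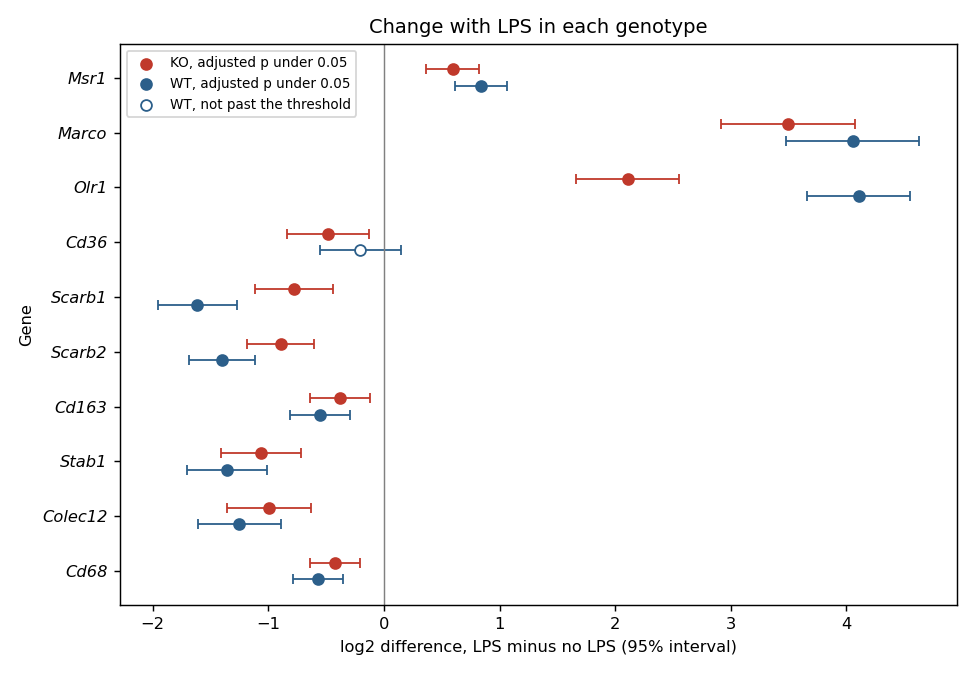
Log2 difference with LPS minus without (horizontal axis) for each scavenger receptor gene, KO in red above WT in blue, with 95% intervals from limma. Filled points have an adjusted p under 0.05. Marco, Olr1 and Msr1 lie to the right of 0 and the others to the left, and the KO point is nearer to 0 than the WT point for every member except Cd36. Of these differences between genotypes, that of Olr1 was called.

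In the fit without replicate numbers, the members called between genotypes with LPS were Olr1, lower in KO, and Scarb1 and Scarb2, higher in KO. These 3 calls of 10 stand against 3.05% of all genes called in either direction (1.8% higher and 1.26% lower). At an unadjusted p under 0.05 there were 6 members. The median difference over the members was 0.31, with -0.01 over all genes, and the median size was 0.51, with 0.0842 over all genes. KO and WT arrays did not overlap for 4 members, the 3 called and Stab1, against 7.73% of all genes.

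Olr1 was at 8.20, 7.30, 7.44 and 6.88 in KO arrays with LPS, against 9.84, 9.96, 9.22 and 9.31 in WT arrays with LPS. The highest KO array was below the lowest WT array by more than 1 log2 unit. The difference was -2.13 ± 0.21 (SE), or 4.37-fold lower in KO (adjusted p = 1.37e-05). It was called in all 27 alternative settings that gave a value, at -2.70 to -1.94 with adjusted p up to 0.00476. KO array 4, where Xist was above Kdm5d as in the WT arrays, had the lowest Olr1 level of the KO arrays with LPS, 6.88. It is 1 array, which also stood apart on the second principal component. Whether sex has a part in the Olr1 difference was not tested by it. The Olr1 levels of both genotypes with LPS exceeded all unstimulated levels, so Olr1 was induced in KO macrophages, to a lower level.

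Scarb1 was at 9.59, 9.19, 9.57 and 9.64 in KO arrays with LPS, against 8.66, 7.98, 8.75 and 8.82 in WT arrays with LPS. Array 2 was the lowest of its group in both genotypes, and each KO array was above every WT array. The difference was 0.94 ± 0.16, or 1.92-fold higher in KO (adjusted p = 0.00226). It was called in 26 of 28 settings and not with a term for the Xist and Kdm5d split together with the replicate number (0.80, adjusted p = 0.0734) or among the arrays with Xist above Kdm5d (1.09, adjusted p = 0.122). Scarb2 was at 9.62, 9.77, 9.28 and 9.36 in KO arrays with LPS, against 8.82, 8.99, 8.92 and 8.76 in WT arrays with LPS, again without overlap. It was 1.55-fold higher in KO (0.63 ± 0.14, adjusted p = 0.0135). This call was lost with the term for the Xist and Kdm5d split (0.44, adjusted p = 0.155), with that term and the replicate number (0.54, adjusted p = 0.129), among the arrays with Xist above Kdm5d (0.48, adjusted p = 0.247), and without KO array 1 (0.60, adjusted p = 0.0507) or 2 (0.54, adjusted p = 0.053) of the LPS group. Whether sex has a part in the Scarb1 and Scarb2 differences was not tested apart from these fits.

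Same-numbered KO and WT arrays deviated together. With the replicate number entered as a block, 5 members were called with LPS, Cd36 and Stab1 being added. Stab1 was at 11.03, 10.63, 11.53 and 11.02 in KO arrays with LPS, against 10.54, 10.49, 10.49 and 10.46 in WT arrays with LPS. All 4 KO arrays were above all 4 WT arrays, by 0.56 ± 0.17 on average (adjusted p = 0.0844, and 0.0266 with the block). Stab1 was also called without KO array 2 of the LPS group (0.70, adjusted p = 0.0268) and without unstimulated KO array 3 (adjusted p = 0.0431). Cd36 was at 10.91, 10.50, 10.62 and 10.45 in KO arrays with LPS, against 10.30, 9.87, 10.53 and 9.70 in WT arrays with LPS. The difference was 0.52 ± 0.17 (adjusted p = 0.129, and 0.0338 with the block), and 2 KO arrays lay below the highest WT array, number 3, without which Cd36 was called (0.66, adjusted p = 0.0346). The remaining 5 members were not called with LPS. Colec12 differed by 0.42 (95% interval 0.06 to 0.78, adjusted p = 0.301) and Cd68 by 0.20 (-0.02 to 0.41, adjusted p = 0.528). Marco differed by -0.51, with an interval of -1.08 to 0.07 wide enough to hold a 2-fold reduction in KO (adjusted p = 0.569). For Msr1 (-0.04, -0.26 to 0.19) and Cd163 (-0.05, -0.31 to 0.21) the intervals held no difference beyond 0.31 in size.

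**Figure D3:**
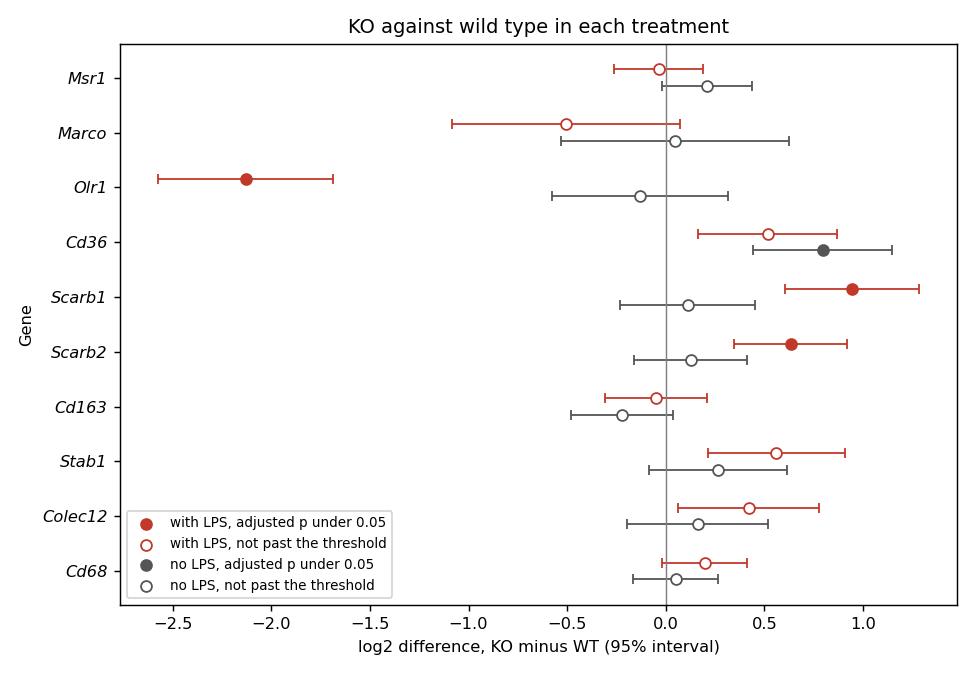
Log2 difference KO minus WT (horizontal axis) for each scavenger receptor gene, with LPS in red above without LPS in grey, with 95% intervals from limma. Filled points have an adjusted p under 0.05, which were Olr1, Scarb1 and Scarb2 with LPS and Cd36 without it. The replicate number was not in this fit.

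Without LPS, Cd36 was the member called between genotypes. It was at 11.31, 10.95, 11.10 and 11.04 in KO arrays, against 10.09, 10.18, 10.68 and 10.27 in WT arrays. The lowest KO array was above the highest WT array, and Cd36 was 1.73-fold higher in KO (0.79 ± 0.17, adjusted p = 0.024). One member of 10 compares with 1% of all genes called in either direction, split into 0.14% higher and 0.863% lower, and one member without overlap with 4.33% of all genes. The difference was 0.68 to 0.92 in the 28 settings and was called in 18 of them. It was not called with the term for the Xist and Kdm5d split (0.68, adjusted p = 0.112), with that term and the replicate number (0.90, adjusted p = 0.1), among the arrays with Xist above Kdm5d (0.73, adjusted p = 0.335), among the arrays numbered 1 to 3 (0.80, adjusted p = 0.0645) or with all probe sets adjusted together (0.79, adjusted p = 0.0929). It was also not called without KO array 1 (0.72, adjusted p = 0.104), KO array 3 (0.79, adjusted p = 0.0655), WT array 1 (0.72, adjusted p = 0.097), WT array 2 (0.75, adjusted p = 0.0916) or WT array 4 (0.78, adjusted p = 0.0571). KO array 4, with Xist above Kdm5d, had 11.04, above all 4 WT arrays. It is 1 array, which also stood apart on the second principal component. Whether sex has a part in the Cd36 difference was not tested by it. Cd36 was thus the higher in KO on average in both treatments, by 0.52 with LPS, which was not called, and by 0.79 without. Those values come from separate arrays, but the Xist and Kdm5d split fell on the same KO array numbers in both treatments. The other 9 members were not called. Olr1 differed by -0.13 (-0.58 to 0.31, adjusted p = 0.944), Scarb1 by 0.11 (-0.23 to 0.45, adjusted p = 0.938) and Scarb2 by 0.13 (-0.16 to 0.41, adjusted p = 0.909). Marco had the widest interval (0.05, -0.53 to 0.63), and Colec12 (0.16), Stab1 (0.27), Msr1 (0.21), Cd163 (-0.22) and Cd68 (0.05) had intervals that included 0.

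The test of the difference in LPS response, KO response minus WT response, called Olr1 alone of the 10 members, against 1.29% of all genes called (0.988% higher, 0.301% lower), with 3 members at an unadjusted p under 0.05. Olr1 rose by 2.11 in KO macrophages and by 4.11 in WT macrophages, a difference of -2.00 ± 0.30 (95% interval -2.63 to -1.37, adjusted p = 0.00368). It was called in all 25 settings that gave a value, at -2.71 to -1.80, with adjusted p up to 0.0485. The unstimulated Olr1 levels overlapped between the genotypes. They lay below the all-gene median on every array, where RMA compresses differences, so they cannot show whether the genotypes also differed without LPS. Scarb1 fell by 0.78 in KO and fell by 1.61 in WT macrophages, and the 0.83 ± 0.23 between these was not called (0.35 to 1.32, adjusted p = 0.0943). With the replicate number as a block it was (adjusted p = 0.0162), and likewise with the Xist and Kdm5d term added to the block (adjusted p = 0.0179). For Scarb2 the difference was 0.51 (0.10 to 0.91, adjusted p = 0.3), and for Marco -0.56 (-1.37 to 0.26, adjusted p = 0.726). The other 6 members had differences between -0.28 and 0.29 with adjusted p between 0.673 and 0.834.

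**Figure D4:**
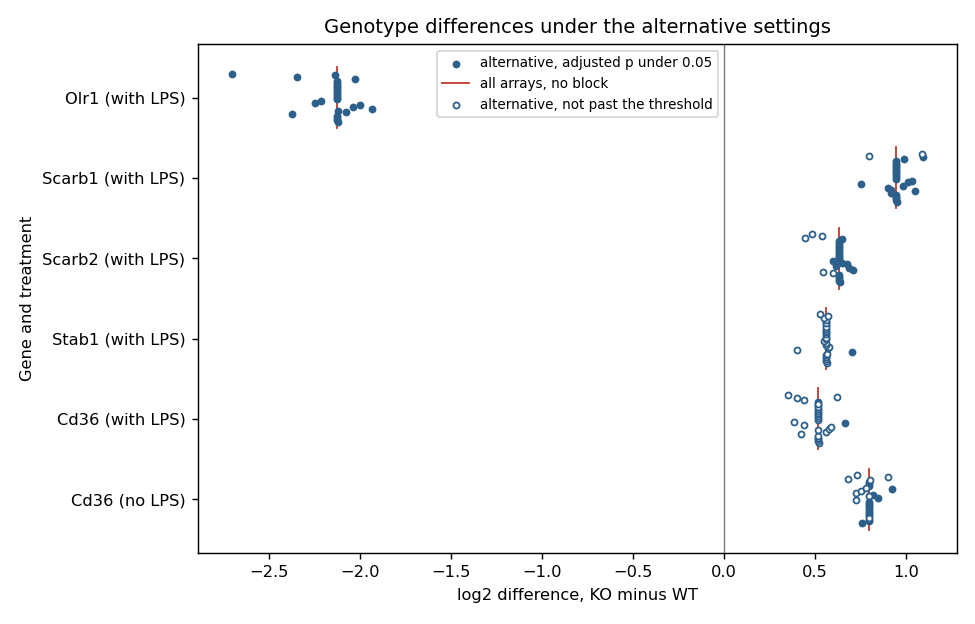
Log2 difference KO minus WT (horizontal axis) for Olr1, Scarb1, Scarb2, Stab1 and Cd36 with LPS and for Cd36 without LPS, under each alternative setting (dots, filled where the adjusted p is under 0.05), with the value over all arrays and no block as a red line. Every dot of Olr1 is filled, and those of Stab1 and of Cd36 with LPS are mostly open.

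Within groups the members differed in how tightly the 4 arrays lay. The pooled SD over the 4 groups was 0.46 for Marco and 0.35 for Olr1, between 0.21 and 0.27 for Colec12, Cd36, Stab1, Scarb1 and Scarb2, and 0.18 or less for Cd163, Msr1 and Cd68. Stab1 spread more on KO arrays, with an SD of 0.37 with LPS and 0.36 without, than on WT arrays, with 0.03 and 0.10, and the highest Stab1 level of each KO group was on array 3 (11.53 and 12.58). The share of variance between the 4 groups was 97.1% for Olr1 and 95.8% for Marco, and 72.9% for Cd36 and 71.3% for Cd163. As a description over the 16 arrays, which share the LPS contrast, the genes most like Olr1 were Slc39a14, Zdhhc2 and Serpinb2, each with a Pearson r of 0.98. Those most like Marco were Eif4g2, Cxcl3 and Sav1 (0.98 each), and those most like Scarb1 were Atraid, Galc and Tpp1 (0.98 each). Galc and Tpp1 encode lysosomal enzymes. Scarb2 was followed most closely by Mgat5 and Cd300a (0.98 each) and Tgfbr1 (0.97), and Cd68 by Lgals3, which encodes galectin-3 (0.98), Steap3 and Adssl1 (0.97 each). The best matches of Stab1 were Wwp1 (0.97), Ap5s1 (0.96) and B3galnt1 (0.95), of Colec12 Tspan14 (0.96), Sfxn5 and Acot2 (0.95 each), and of Msr1 Sec23b (0.97), G3bp1 and Kif5b (0.96 each). Cd163 had Fbxl6 (0.92), Anxa9 and Slc25a24 (0.91 each). Cd36 had the weakest best matches, Pafah2 (0.84), Vwf (0.83) and Frat2 (0.82).

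Genes of the surrounding pathways were read from 4 lists. Of 25 measured other scavenger and endocytic receptors, 0 were higher and 1 was lower in KO than in WT macrophages with LPS. Over all genes 1.8% were higher and 1.26% lower, so this count lies near the shares over all genes (4 at an unadjusted p under 0.05). The 1 called gene was Sorl1, a sorting receptor of the lipoprotein receptor family (-0.94, adjusted p = 0.0113). Its call was lost among the arrays numbered 1 to 3 (adjusted p = 0.0639) and with the Xist and Kdm5d term and the replicate number together (adjusted p = 0.123). Without LPS none of the 25 was called by limma between genotypes, against 1% of all genes, with 3 at an unadjusted p under 0.05. With LPS against without, 2 of the 25 rose and 6 fell in KO macrophages, where 24.7% of all genes were called, and 2 rose and 4 fell in WT macrophages, where 30.8% were. These counts lie near the shares over all genes. Mrc1, the mannose receptor, fell by 1.79 in KO and fell by 2.40 in WT, and Lrp1, a large endocytic receptor for lipoproteins and proteases, fell by 1.10 in KO and fell by 1.36 in WT. The KO calls of Mrc1 (adjusted p = 0.0504) and Lrp1 (adjusted p = 0.0903) were lost among the arrays with Xist above Kdm5d. Scarf1, another scavenger receptor, rose by 1.18 in KO and 1.13 in WT. Cxcl16, a chemokine that doubles as an oxidised lipoprotein receptor, rose by 0.57 in KO. Cxcl16 was not called in WT (-0.03, adjusted p = 0.882), and its difference in response was not called (0.59, adjusted p = 0.0698). Clec7a, the beta-glucan receptor Dectin-1, fell by 0.46 in KO and fell by 1.20 in WT.

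Of 15 measured genes of lipid uptake, storage and lysosomal release, 5 were higher and 0 lower in KO than in WT macrophages with LPS, against 1.8% of all genes higher and 1.26% lower, and 0 were called without LPS by limma (2 at an unadjusted p under 0.05). Lipa, the lysosomal acid lipase that frees cholesterol from its esters, was higher in KO with LPS by 1.23 (2.34-fold, adjusted p = 0.000676). Nceh1, a hydrolase of stored cholesteryl ester, was higher by 1.06 (adjusted p = 0.00107), Abcg1, a cholesterol exporter, by 0.77 (adjusted p = 0.014) and Slc27a1, a fatty acid transporter, by 0.74 (adjusted p = 0.0128). The fifth was Npc1 (0.37, adjusted p = 0.0411), named after its value was seen, a call lost in 16 of 28 settings, among them the Xist and Kdm5d term (0.25, adjusted p = 0.255). With the term for the Xist and Kdm5d split, Lipa and Nceh1 stayed called, Abcg1 (0.51, adjusted p = 0.171) and Slc27a1 (0.61, adjusted p = 0.113) did not, and with the replicate number added to that term none of these 4 was called (adjusted p 0.141 for Lipa, 0.182 for Nceh1, 0.446 for Abcg1 and 0.255 for Slc27a1). Among the arrays with Xist above Kdm5d 0 of the 15 were called, with an adjusted p of 0.128 for Lipa and 0.182 for Nceh1. Abcg1 was also lost without KO array 1 of the LPS group (adjusted p = 0.0597) and with only the groups compared (adjusted p = 0.0666), and Slc27a1 without WT array 2 of the LPS group (adjusted p = 0.0534). The median difference over the 15 was 0.07 with LPS, where all genes gave -0.01. LPS lowered 7 and raised 2 of these 15 genes in KO macrophages, against 24.7% of all genes called, and lowered 8 and raised 2 in WT macrophages, against 30.8%. Nceh1 fell by 2.23 in KO and fell by 3.11 in WT. Plin2, which coats lipid droplets, fell by 1.36 in KO and fell by 1.39 in WT, and Npc1, which moves cholesterol out of lysosomes, fell by 1.13 in KO and fell by 1.29 in WT. Slc27a1 fell by 1.14 in KO and fell by 1.56 in WT, and Abcg1 fell by 1.15 in KO and fell by 1.88 in WT. The difference in response was called for Lipa (1.14, adjusted p = 0.0338), a call lost in 14 of 26 settings, up to an adjusted p of 0.555 among the arrays with Xist above Kdm5d.

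Among 12 measured regulators of scavenger receptor genes, 1 was called between genotypes with LPS, against 3.05% of all genes (4 at an unadjusted p under 0.05). It was Ppard, a lipid-sensing nuclear receptor, lower in KO than in WT macrophages (-0.68, adjusted p = 0.00378). That call was lost with the Xist and Kdm5d term (-0.55, adjusted p = 0.066), with the replicate number added to it (adjusted p = 0.22) and among the arrays with Xist above Kdm5d (adjusted p = 0.185). The LPS response of Ppard also differed (-0.87, adjusted p = 0.018), a call lost with all probe sets adjusted together (adjusted p = 0.0665) and among the arrays with Xist above Kdm5d (adjusted p = 0.389). With LPS, 4 of the 12 rose and 5 fell in KO, against 24.7% of all genes called, and 4 rose and 6 fell in WT macrophages, against 30.8%. Pparg, the nuclear receptor known to act on Cd36, fell by 1.81 in KO and fell by 2.13 in WT. Its partner Rxra fell by 1.59 in KO and fell by 1.53 in WT, and Cebpb, a transcription factor of inflammatory genes, rose by 1.27 in KO and 1.56 in WT. Ppard fell by 1.11 in KO and was not called in WT (-0.23, adjusted p = 0.178). Stat6, which relays interleukin-4 signals, fell by 0.58 in KO and fell by 0.77 in WT macrophages. None of the 12 was called between genotypes without LPS by limma, against 1% of all genes (1 at an unadjusted p under 0.05). Of 11 measured partners and signalling genes, 2 were higher and 0 lower in KO with LPS, against 1.8% and 1.26% of all genes. They were Mertk, a receptor for dying cells (0.79, adjusted p = 0.00891), and Cd81, a tetraspanin (0.49, adjusted p = 0.0155). Mertk was lost with the Xist and Kdm5d term (adjusted p = 0.0915), with the replicate number added (adjusted p = 0.509) and among the arrays with Xist above Kdm5d (adjusted p = 0.339). Cd81 was lost in 7 of 28 settings, including those 3 (adjusted p = 0.0837, 0.341 and 0.296), the arrays numbered 1 to 3 (adjusted p = 0.0644), only the groups compared (adjusted p = 0.0528), and without KO array 3 (adjusted p = 0.0522) or WT array 3 (adjusted p = 0.0536) of the LPS groups. With LPS, 4 of these 11 genes rose and 4 fell in KO, against 24.7% of all genes called. In WT macrophages 4 rose and 5 fell, against 30.8%. Without LPS, 1 of the 11 was called between genotypes, against 1% of all genes. It was Cd14, the LPS co-receptor, lower in KO (-1.20, adjusted p = 5.13e-05). The Cd14 response was larger in KO, with a rise of 2.03, against 1.04 in WT (difference 0.99, adjusted p = 0.016). That call was lost with all probe sets adjusted together (adjusted p = 0.0584) and among the arrays with Xist above Kdm5d (0.87, adjusted p = 0.296). Tlr4, the LPS receptor, fell by 1.02 in KO and fell by 1.33 in WT with LPS. Tlr6, a receptor for bacterial lipopeptides, rose by 1.35 in KO and 0.67 in WT. Adam17, a sheddase of surface receptors, rose by 0.67 in KO and 0.49 in WT. Mertk fell by 1.15 in KO and fell by 1.62 in WT. Adam10, another sheddase, fell by 0.75 in KO and fell by 1.13 in WT macrophages.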

How the data were processed

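RNA of 16 samples was measured on 1-channel arrays. The deposited values are log2 levels per probe set, made by the authors with RMA per the submitters' processing notes, version not given in the sources used here. Values for 0 sample columns were left aside. Of 34760 probe sets, 21640 had 1 gene in the platform annotation, 1321 had several and 11799 were not listed and stay unnamed. Symbols were matched through the gene identifier to a RefSeq table of assembly GRCm38.p6, which held 21553 and changed 0. Each of 19937 genes was read by the probe set with the highest mean level. Array medians were 6.76 to 6.86, and 4 arrays per group limit the precision.

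Groups come from the treatment and genotype labels. One model with a mean per group was fitted over all arrays and genes (lmFit and eBayes, limma 3.58.1, R 4.3.3), leaving 12 residual degrees of freedom, with Benjamini-Hochberg adjustment over all genes and calls at 0.05. It was first run on simulated data with independent noise, which held neither the replicate pairing nor the Xist and Kdm5d split. The members and lists were chosen with earlier results of these data known, so their counts are no independent support. Named were all members, the called genes with the 4 smallest adjusted p per list and comparison, and the 3 genes most correlated with each member among genes above the median level. Nfat5, Xist and Kdm5d were named as label checks. Alternatives were median centring, a filter on dim genes, all probe sets, the most variable probe set, an intensity trend, only the groups compared, the replicate block, a sex term from Xist above Kdm5d, subsets of arrays and leaving out each array.

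Replicate numbers are those of the titles, and the main fit left them out. What was left after subtracting group means correlated by 0.19 to 0.52 between KO and WT arrays of the same number with LPS and by 0.16 to 0.44 without, all above 0.1, so the numbers pair the arrays in the genotype comparisons. Between LPS and unstimulated arrays the range was -0.06 to 0.56 in KO and 0.05 to 0.43 in WT, so the numbers were not taken to pair these. The Xist and Kdm5d split nevertheless fell on the same KO array numbers in both treatments. Arrays within a group differed from each other with an SD of 0.17 to 0.38, and none were duplicates.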

Additional observations from a re-analysis of the deposited data

Results flagged for a closer look

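Scarb1 on KO array 2 with LPS (9.19) lay apart from the other 3 arrays of its group, which were at 9.57 to 9.64, and Msr1 on unstimulated WT array 2 (11.70) lay above the other 3, at 11.48 to 11.51. Among the 40 groups of 4 arrays examined these were the 2 whose gap from the extreme array to the next passed Dixon's critical value for 4 samples, which chance does in about 5% of groups. Olr1 was flagged because its LPS response differed between the genotypes, by -2.00 (KO minus WT).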

How the results depend on the processing

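Among 28 alternatives, 16 of which left out 1 array, members called for KO against WT with LPS numbered 5 with the replicate block (Cd36 and Stab1 added), also among the 8 arrays compared, 2 with the sex term, and 1 (Olr1) with the sex term and block or among the arrays with Xist above Kdm5d. The main count was 3, and leaving out 1 array gave 2 to 4. Without LPS the 1 member (Cd36) went to 0 with all probe sets, arrays 1 to 3, the sex term, the sex term with block and the arrays with Xist above Kdm5d, and to 0 to 1 without 1 array. For LPS in KO, 10 went to 5 among the arrays with Xist above Kdm5d and to 8 to 10 without 1 array, and for LPS in WT the count was 9 to 9 without 1 array, and 7 of 8 members kept by the dim filter. For the difference in response, 1 went to 0 with the dim filter, which removed Olr1 and Cd163, and to 2 with the replicate block, alone or with the sex term (Scarb1 added), and stayed at 1 to 1 without 1 array. The block moved Cd36 (adjusted p = 0.0338) and Stab1 (0.0266) across the threshold with LPS and Scarb1 (0.0162) for the response, and it changed no other member's call. Between LPS and unstimulated arrays, which were not taken as paired, it changed no call.

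Uncalled genotype differences crossed 0 as follows. With LPS, Cd163 was at 0.00136 without KO array 4 and at 0.013 among arrays 1 to 3. Without LPS, Marco was at -0.0531 without KO array 1, ran from -0.0906 (without WT array 4) to 0.131 when 1 array was left out, and was at -0.0784 among arrays 1 to 3. With the sex term Msr1 was at -0.00892, Scarb2 at -0.0651 and Colec12 at -0.15, and with the block added Scarb1 was at -0.0393 and Cd68 at -0.0225. Among arrays with Xist above Kdm5d, Msr1 was at -0.14, Scarb2 at -0.11, Colec12 at -0.0947 and Olr1 at 0.0033, and the response difference of Msr1 at 0.0211. The cause was not tested. Over all genes, calls ran from 89 to 1149 around 609 for KO against WT with LPS, from 58 to 359 around 200 without, from 1962 to 5866 around 4919 for LPS in KO, and from 4 to 469 around 257 for the response. For LPS in WT, calls ran from 5276 with the filter on dim genes to 7243 with all probe sets, around 6132. The fits among arrays with Xist above Kdm5d have 1 KO array per treatment, assumed to vary like the others.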
